A study of Mus musculus with 9 samples.

Results

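Calca, Chga, Chgb, Scg2, Syp, Insm1 and Resp18 are genes by which pulmonary neuroendocrine cells are commonly recognised. They were taken by symbol from a table of 27207 genes, and 7 of 7 were found and tested. Their RNA was measured by RNA sequencing of whole mouse lungs at E18.5, shortly before birth, in 9 libraries of 3 groups with 3 libraries each. The groups were wild type, and Tbx4-rtTA/Tet-O-Cre lungs that were Dnmt1-D/D, here called CKO (conditional knockout of Dnmt1), which the submitters split into a weak and a strong phenotype. Weak CKO lungs were hypoplastic, and strong CKO lungs were hypoplastic and also bled widely into the parenchyma. The sources used here do not give whether the wild type lungs carried either transgene or a floxed allele, when doxycycline was given, or whether each lung came from its own litter. P-values therefore reflect only the spread among these libraries. Library names begin with WT in wild type, MUT_W in weak CKO and MUT_S in strong CKO.

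Pulmonary neuroendocrine cells are rare epithelial cells of the airway that sense oxygen, stretch and irritants and release peptides and amines from dense-core granules. They arise from the lung endoderm, with Insm1 among the transcription factors of their programme, and Notch signalling holds neighbouring cells in other airway fates. Tbx4-rtTA drivers are used to reach the lung mesenchyme, a lineage separate from the endoderm, and Tet-O-Cre makes Cre recombinase only where and when rtTA and doxycycline meet. Neurons and other endocrine cells use most of the same granule and vesicle genes, so none of the 7 genes marks a neuroendocrine cell by itself. In RNA from whole lung, more cells of a type and more RNA per cell cannot be told apart.

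Libraries held 25607595 to 33156732 counts, and levels are given as CPM, counts scaled to library size, after TMM normalisation, edgeR's adjustment for library composition. Dnmt1 itself averaged 99.1 ± 21 CPM in wild type, 69.6 ± 10.8 in weak CKO and 68.6 ± 8.91 in strong CKO (SD, n = 3). Its log2 change was -0.51 ± 0.17 (SE, adjusted p = 0.0727) in weak CKO and -0.53 ± 0.17 (adjusted p = 0.0433) in strong CKO, and the call in strong CKO was lost in 10 of 16 alternative analyses, 5 of which left out WT_268_1, WT_549_2, MUT_W_268_3, MUT_S_265_5 or MUT_S_860_3 (log2 change -0.67 to -0.36 over all 16). Another marker used for neuroendocrine cells, the ubiquitin hydrolase Uchl1, was read at 2.97 to 8.81 CPM over the 9 libraries. No library had 0 counts of any of the 7 genes. The labels name lung and no cell type, and these levels do not show which cells the RNA came from.

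In all, 6 of the 7 genes rose in strong CKO lungs and 4 of 7 rose in weak CKO lungs, while none fell. Calca, Chga, Chgb and Resp18 rose in both, Scg2 and Insm1 passed the test in strong CKO alone (Scg2 also in weak CKO when WT_265_1 was left out, 1.54), and Syp passed in neither. The log2 changes of the 6 genes that rose in strong CKO ran from 1.15 for Chgb to 1.74 for Chga. For comparison, 9.09% of the 19374 genes tested were called higher in weak CKO and 14.6% in strong CKO, and 5.38% and 11% were called lower. The median log2 change of the 7 genes was 1.11 in weak and 1.40 in strong CKO, against -0.0077 and -0.00097 over all genes tested. Chga, Chgb, Insm1 and Resp18 passed the filter on low counts only through the CKO groups, which makes a difference more likely among them; of the 3 genes that passed in wild type alone, Calca rose in weak CKO and Calca and Scg2 rose in strong CKO. Without that filter 3 of the 7 genes were called in weak CKO and 6 in strong CKO, where 6.62% and 10.8% of all genes were called higher.

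**Figure D1:**
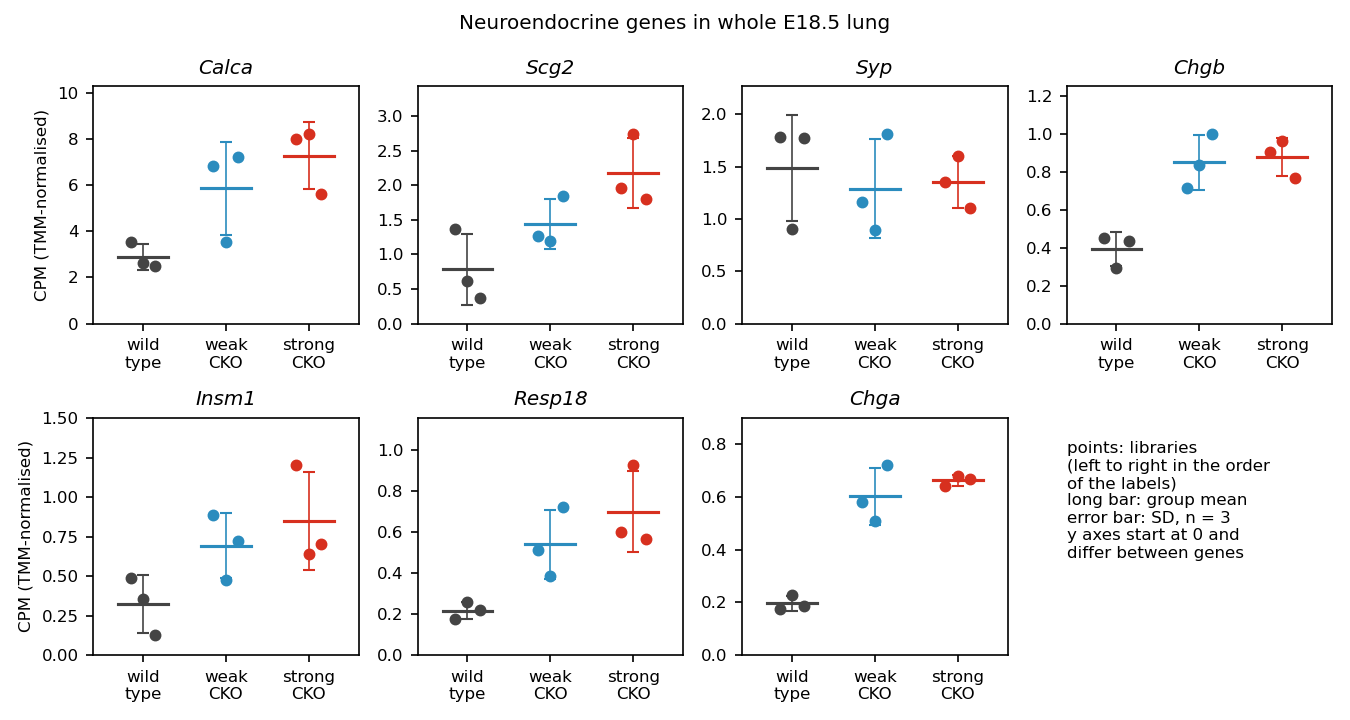
TMM-normalised CPM of the 7 neuroendocrine genes (y axes, each starting at 0) in the wild type, weak CKO and strong CKO groups (x axis); points are libraries, long bars group means and error bars the SD of 3 libraries. The 6 genes other than Syp have every strong CKO point above the wild type points, and Syp has its groups on top of each other.

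Calca lies on chromosome 7 at 114631478 to 114636357 (GRCm38, minus strand) and is spliced into mRNA for calcitonin or for CGRP (calcitonin gene-related peptide), the main peptide of these cells in rodents. The gene count cannot separate the 2 mRNAs. Calca was read at 3.52, 2.62 and 2.49 CPM in WT_265_1, WT_268_1 and WT_549_2. It was read at 6.81, 3.52 and 7.24 CPM in MUT_W_265_2, MUT_W_268_3 and MUT_W_549_3, and at 7.98, 8.24 and 5.62 CPM in MUT_S_265_5, MUT_S_268_4 and MUT_S_860_3. All strong CKO libraries lay above all wild type libraries, whereas MUT_W_268_3 lay level with the highest wild type library. The log2 change was 1.03 ± 0.28 (SE, adjusted p = 0.0354) in weak CKO and 1.34 ± 0.28 (adjusted p = 0.00643) in strong CKO. The weak CKO call was lost without WT_268_1 (0.96), WT_549_2 (0.93), MUT_W_265_2 (0.90) or MUT_W_549_3 (0.84), and the strong CKO call held in all 16 alternatives. Calcb, a neighbouring gene of close sequence that encodes a second CGRP, averaged 0.978, 1.20 and 1.17 CPM in the 3 groups (log2 changes 0.29 and 0.25, adjusted p = 0.470 and 0.479); it was chosen after its values were seen.

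The granins Chga, Chgb and Scg2 encode acidic proteins that condense peptides into dense-core granules and are themselves cut into peptides. Chga, at 102554969 to 102565028 on the plus strand of chromosome 12, was read at 0.175, 0.226 and 0.187 CPM in wild type. It was read at 0.579, 0.507 and 0.721 CPM in weak CKO and at 0.640, 0.678 and 0.669 CPM in strong CKO, with libraries in the order used for Calca throughout. No CKO library overlapped the wild type range, and the strong CKO libraries lay close together. These levels rest on few reads, 18 counts over the wild type libraries (95% Poisson interval 10.7 to 28.4, counting error only), 57 over the weak and 56 over the strong CKO libraries. The log2 change of Chga was 1.60 ± 0.31 (adjusted p = 0.00702) in weak CKO and 1.74 ± 0.31 (adjusted p = 0.00259) in strong CKO.

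Chgb, at 132781278 to 132795079 on the plus strand of chromosome 2, was read at 0.454, 0.291 and 0.436 CPM in wild type. Weak CKO libraries held 0.715, 0.835 and 1.003 CPM and strong CKO libraries 0.904, 0.963 and 0.769 CPM of Chgb. Here too the CKO libraries all lay above the wild type libraries, and the weak and strong ranges overlapped. The log2 change of Chgb was 1.11 ± 0.28 (adjusted p = 0.0267) in weak CKO and 1.15 ± 0.29 (adjusted p = 0.0140) in strong CKO. The weak CKO call was lost without WT_268_1 (0.93), WT_549_2 (1.19), MUT_W_268_3 (1.13) or MUT_W_549_3 (0.98).

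Scg2, at 79434669 to 79440120 on the minus strand of chromosome 1, was read at 1.36, 0.614 and 0.373 CPM in wild type. Weak CKO libraries held 1.26, 1.19 and 1.85 CPM and strong CKO libraries 1.96, 2.75 and 1.80 CPM of Scg2. WT_265_1 stood above the other wild type libraries and above 2 of the weak CKO libraries, so the weak CKO and wild type groups overlapped and the strong CKO and wild type groups did not. The log2 change of Scg2 was 0.88 ± 0.41 (adjusted p = 0.190) in weak CKO and 1.48 ± 0.41 (adjusted p = 0.0234) in strong CKO. Without WT_265_1 the weak CKO change was 1.54 (adjusted p = 0.0205), past the threshold. The strong CKO call was lost in 5 of 16 alternatives, among them without WT_268_1 (1.34), WT_549_2 (1.14), MUT_S_265_5 (1.55) or MUT_S_268_4 (1.28).

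Resp18, at 75272199 to 75278415 on the minus strand of chromosome 1, encodes a protein of the regulated secretory pathway of endocrine and neuronal cells. It was read at 0.175, 0.258 and 0.218 CPM in wild type, at 0.511, 0.388 and 0.721 CPM in weak CKO and at 0.603, 0.928 and 0.568 CPM in strong CKO. All CKO libraries lay above the wild type libraries. The log2 change of Resp18 was 1.29 ± 0.38 (adjusted p = 0.0456) in weak CKO and 1.67 ± 0.38 (adjusted p = 0.00882) in strong CKO, and the weak CKO call was lost in 12 of 16 alternatives, among them without any 1 library other than MUT_S_268_4 (1.03 to 1.49). Resp18 is overlapped on the other strand by Gm28902, and Syp by Gm14703; since the sources used here do not say whether the libraries kept strand, reads of each pair cannot be told apart.

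Insm1, at 146221921 to 146225020 on the plus strand of chromosome 2, encodes a zinc finger transcription factor of neuroendocrine differentiation and has a single exon. It was read at 0.489, 0.355 and 0.125 CPM in wild type, at 0.886, 0.477 and 0.721 CPM in weak CKO and at 1.21, 0.642 and 0.702 CPM in strong CKO. WT_265_1 reached just above the lowest weak CKO library, and the strong CKO libraries all lay above wild type. The log2 change of Insm1 was 1.11 ± 0.47 (adjusted p = 0.149) in weak CKO and 1.40 ± 0.47 (adjusted p = 0.0497) in strong CKO, just inside the threshold, and the call was lost in 11 of 16 alternatives, among them without any 1 library other than WT_265_1 (1.0 without WT_549_2 and 1.57 without MUT_S_268_4).

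Syp, at 7638471 to 7653256 on the plus strand of chromosome X, encodes synaptophysin, a membrane protein of small synaptic-like vesicles rather than of dense-core granules. It was read at 1.78, 0.904 and 1.77 CPM in wild type, at 1.16, 0.895 and 1.82 CPM in weak CKO and at 1.36, 1.60 and 1.10 CPM in strong CKO. The 3 groups overlapped almost entirely. The log2 change of Syp was -0.20 ± 0.34 (95% interval -0.95 to 0.54, adjusted p = 0.743) in weak CKO and -0.13 ± 0.34 (95% interval -0.88 to 0.62, adjusted p = 0.804) in strong CKO. Both intervals stop short of the log2 changes measured for the 6 other genes in strong CKO, and the difference between Syp and those genes was not tested.

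**Figure D2:**
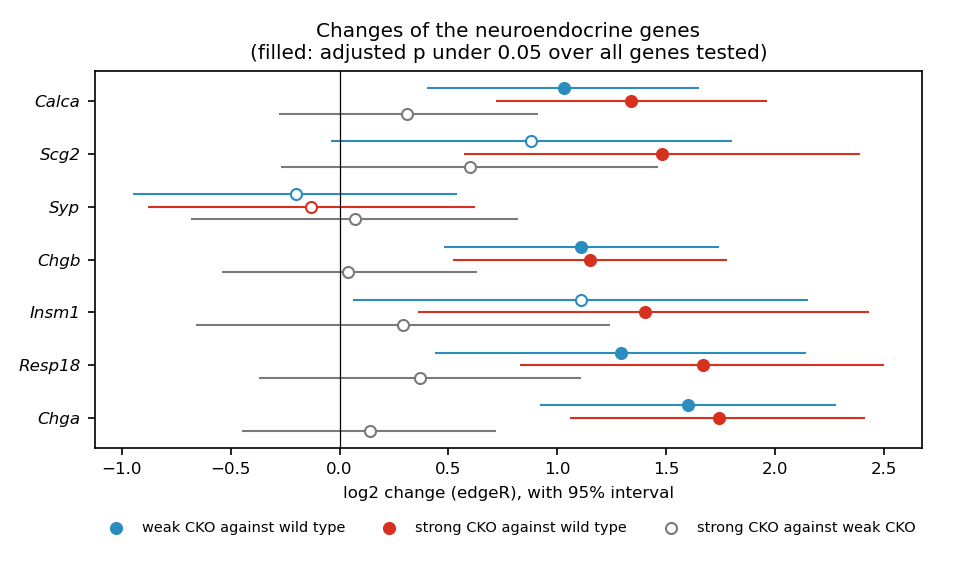
Log2 changes of the 7 genes with 95% intervals (x axis) for weak and strong CKO, each against wild type, and for strong against weak CKO; filled points have adjusted p under 0.05 over all genes tested. Strong CKO points of the 6 genes that rose sit between 1.15 and 1.74, Syp lies at -0.20 and -0.13, and every interval of strong against weak CKO crosses 0.

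Strong and weak CKO lungs were compared directly, to ask whether the genes follow the severity of the phenotype. None of the 7 genes was called in either direction, with adjusted p from 0.897 to 0.994 in edgeR, 0 had an unadjusted p under 0.05 and DESeq2 called 0, and over all 19374 genes 0% were called higher and 0.00516% lower. The differences were 0.31 for Calca (95% interval -0.28 to 0.91), 0.14 for Chga (-0.45 to 0.72), 0.04 for Chgb (-0.54 to 0.63), 0.60 for Scg2 (-0.27 to 1.46), 0.29 for Insm1 (-0.66 to 1.24), 0.37 for Resp18 (-0.37 to 1.11) and 0.07 for Syp (-0.68 to 0.82). The upper bounds run from 0.63 to 1.46, and Scg2 and Insm1, called against wild type in strong CKO alone, are not shown to differ between the phenotypes. With both CKO groups pooled against wild type, 6 of 7 genes rose and none fell (15.1% of all genes were called higher and 11.5% lower) and Chga, Chgb and Resp18 had all 6 CKO libraries above the wild type libraries, as 15.2% of all genes did. Against strong CKO alone, 6 of 7 genes had no overlap with wild type, with 22.7% of all genes doing so in that direction, and against weak CKO 3 of 7 (17.7%).

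To compare levels between genes, reads were scaled to gene length and library size (RPKM). The lengths the authors deposited equal the exon lengths summed over all transcripts of a gene plus 1 base per exon, which counts shared exons repeatedly: Calca has 4415 bases deposited and 1684 bases of exon when each base is counted once. Over the length with each base counted once, the wild type order was Calca (1.71 ± 0.335 RPKM), Scg2 (0.311 ± 0.205), Syp (0.285 ± 0.0966), Resp18 (0.210 ± 0.0407), Chgb (0.144 ± 0.0326), Insm1 (0.104 ± 0.0594) and Chga (0.0710 ± 0.00979; SD, n = 3 each). Calca stood clear of Scg2, and Resp18 of Chgb, while the ranges of the other neighbours overlapped. In strong CKO Calca again led at 4.32 ± 0.859 RPKM, followed by Scg2 at 0.863 ± 0.201 and Resp18 at 0.678 ± 0.192, and Syp had moved from place 3 to place 6 at 0.260 ± 0.0482. On the deposited RPKM, Syp moved from place 2 in wild type (0.187 ± 0.0631) to place 7 in strong CKO (0.172 ± 0.0321). The range of Syp overlapped that of at least 1 neighbour in each of these orders (Scg2 in wild type, Chga in strong CKO), which limits what its place shows.

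The libraries of a group varied in a partly shared way. Among weak CKO libraries MUT_W_549_3 was highest for 6 of the 7 genes and MUT_W_268_3 lowest for 6. Among strong CKO libraries MUT_S_268_4 was highest for 6 and MUT_S_860_3 lowest for 5. In wild type WT_265_1 was highest for 5 genes but lowest for 2, and WT_549_2 was lowest for 3. Across the 21 pairs of genes, the correlation over 9 libraries had a median Pearson r of 0.78 (-0.13 to 0.95), and after the group means were subtracted a median of 0.40 (-0.15 to 0.87). These are descriptions over libraries that share a scaling, and low counts weaken them.

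Since most of the 7 genes moved together, their promoters are shown, from the RefSeq tables on GRCm38.p6. An entry was found for 6 of the 7 genes; Insm1 had none. Each line gives the 150 bases before the RefSeq start site, 5′ to 3′ on the gene's strand, with letters of the cAMP response element (CRE, bound by CREB-type factors in neuroendocrine genes) in capitals: chr1:79440027-79440176 minus for Scg2, chr2:132781492-132781641 plus for Chgb, chr12:102554791-102554940 plus for Chga, chr7:114636358-114636507 minus for Calca, chr1:75278416-75278565 minus for Resp18 and chrX:7638430-7638579 plus for Syp.
Scg2: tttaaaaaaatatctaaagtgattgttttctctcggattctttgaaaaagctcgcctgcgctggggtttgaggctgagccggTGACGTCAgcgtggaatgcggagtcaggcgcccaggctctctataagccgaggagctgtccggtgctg
Chgb: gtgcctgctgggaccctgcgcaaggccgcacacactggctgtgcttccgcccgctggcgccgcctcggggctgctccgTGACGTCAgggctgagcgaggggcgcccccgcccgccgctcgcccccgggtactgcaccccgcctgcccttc
Chga: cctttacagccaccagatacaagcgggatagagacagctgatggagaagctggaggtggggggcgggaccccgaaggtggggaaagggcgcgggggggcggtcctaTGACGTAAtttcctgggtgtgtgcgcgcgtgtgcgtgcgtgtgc
Calca: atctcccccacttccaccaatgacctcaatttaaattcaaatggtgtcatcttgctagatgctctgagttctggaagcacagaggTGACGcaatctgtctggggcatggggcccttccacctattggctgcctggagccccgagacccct
Resp18: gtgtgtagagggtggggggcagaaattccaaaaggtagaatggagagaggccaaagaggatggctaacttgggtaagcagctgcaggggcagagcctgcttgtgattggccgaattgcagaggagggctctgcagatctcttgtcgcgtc
Syp: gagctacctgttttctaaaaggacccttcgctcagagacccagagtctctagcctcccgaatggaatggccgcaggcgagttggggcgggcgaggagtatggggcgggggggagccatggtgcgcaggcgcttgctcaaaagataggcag

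The full CRE letters TGACGTCA stood in Scg2 at 68 to 61 bases before the start and in Chgb at 72 to 65, and the variant TGACGTAA stood in Chga at 44 to 37. Calca held the shorter TGACG at 65 to 61, letters that are also the first part of both longer motifs, and Syp and Resp18 held none of these. Both strands of 300 bases (250 before to 50 after the start) were searched: TGACGTCA or TGACGTAA occurred in 3 of the 6 genes and in 2.28% of 32851 promoter entries of the same length, and TGACG in 4 of 6 genes and 20.8% of entries. CAGCTG, a form of the E-box bound by basic helix-loop-helix factors, occurred in 4 of 6 genes (Calca, Chga, Chgb and Resp18) and in 16.3% of entries. The count of CpG, the dinucleotide Dnmt1 keeps methylated, was 5 in Resp18, 8 in Calca, 16 in Scg2, 18 in Syp, 21 in Chga and 31 in Chgb over these 300 bases, with a median of 7 over all entries. Genes that rose thus had both the fewest and the most CpG of the 6. Methylation was not measured here, and a motif match describes letters only.

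The other genes of neuroendocrine cells, from lists chosen with earlier results of these data known, moved in part. Their counts are read against the 9.09% of all genes called higher and 5.38% called lower in weak CKO, and the 14.6% and 11% in strong CKO. Of 5 tested transcription factors and Notch antagonists, none was called in weak CKO and 3 rose in strong CKO, and none fell (median log2 change 0.88 and 1.41). In weak CKO only Gfi1 of the 5 had an unadjusted p under 0.05 with edgeR (0.95 ± 0.33, adjusted p = 0.0828), and DESeq2 called 1. Gfi1, a zinc finger factor needed for neuroendocrine cells, rose in strong CKO (1.75 ± 0.32, adjusted p = 0.00326), as did the zinc finger factor Myt1 (1.78 ± 0.39, adjusted p = 0.00731). The Myt1 call was lost on the log2(RPKM + 1) and log2(RPKM + 0.1) scales (0.02 and 0.15). Dll3, a Notch ligand that acts as an inhibitor, was called in strong CKO at 1.41 ± 0.46 (adjusted p = 0.0449), a call lost in 11 of 16 alternatives. In wild type Dll3 (0.1745 to 0.1938 CPM), Myt1 (0.09336 to 0.1938) and Gfi1 (0.2093 to 0.3876) did not reach the filter's cutoff of 0.327 CPM in every library. They passed the filter only through the CKO groups, which makes a difference more likely among them. Hes6 (21.5 CPM in wild type, log2 changes 0.08 and -0.01) and Prox1 (8.55 CPM, 0.16 and 0.27) were not called. Both were chosen after their values were seen. Neurod1, Neurod4 and Nkx2-2 were not found by symbol among the 27207 genes and have no values here.

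Among the other peptides, Nmb rose and Gal fell. Of 6 tested, 1 rose in weak CKO, and 1 rose and 1 fell in strong CKO, close to the shares over all genes. Nmb, which encodes the bombesin-like peptide neuromedin B, rose from 1.56 CPM (1.32 to 1.78) to 3.996 (3.67 to 4.24) in weak and 4.47 (3.88 to 5.16) in strong CKO, with log2 changes of 1.35 ± 0.18 (adjusted p = 0.000966) and 1.51 ± 0.18 (adjusted p = 0.000314). Gal, which encodes galanin, fell in strong CKO (-1.13 ± 0.27, adjusted p = 0.0127), a call lost without MUT_S_860_3 (-1.0). Grp, the gastrin-releasing peptide and the related bombesin-like peptide of these cells, averaged 3.29, 2.89 and 2.43 CPM (log2 changes -0.19 and -0.44, adjusted p = 0.599 and 0.143); it was chosen after its values were seen.

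Genes that make and pack peptides showed 3 rises of 11 tested in each CKO group, and 1 fall in strong CKO. Scg3, a granin-binding protein of the granule membrane, rose by a log2 change of 1.16 ± 0.23 (adjusted p = 0.00866) in weak and 1.24 ± 0.23 (adjusted p = 0.00353) in strong CKO. Pcsk1, the protease that cuts prohormones, rose by 1.16 ± 0.30 (adjusted p = 0.0301) and 1.50 ± 0.30 (adjusted p = 0.00550), and Scg5, the chaperone of the related protease Pcsk2, by 1.53 ± 0.44 (adjusted p = 0.0437) and 1.59 ± 0.45 (adjusted p = 0.0243). The weak CKO calls of Pcsk1 and Scg5 were lost in 6 and 8 of 16 alternatives, and the strong CKO call of Scg5 without WT_268_1, WT_549_2, MUT_S_265_5 or MUT_S_268_4 (1.20 to 1.68). Rab3d, a vesicle GTPase found in many secretory cells, was called lower in strong CKO by a small amount (-0.25 ± 0.08, adjusted p = 0.0414), lost in 11 of 16 alternatives.

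Of 13 tested synaptic vesicle genes other than Syp, 1 rose in weak CKO and 2 in strong CKO, and none fell (median log2 change -0.01 and 0.12). The share of rises was about that over all genes, 9.09% and 14.6%. Syn2, a synapsin that tethers vesicles, rose by 1.52 ± 0.19 (adjusted p = 0.000662) in weak and 1.71 ± 0.19 (adjusted p = 0.000215) in strong CKO. Sv2a, a vesicle membrane transporter, was called in strong CKO at 0.60 ± 0.20 (adjusted p = 0.0495), lost in 10 of 16 alternatives. Of 6 tested genes of amine synthesis and transport, none was called in weak CKO, and 2 rose and 1 fell in strong CKO. Tph1, which makes serotonin's precursor, rose by 2.62 ± 0.61 (adjusted p = 0.0111) and spread widely over the strong CKO libraries, from 0.607 to 3.24 CPM. The Tph1 call was lost on the log2(RPKM + 1) scale (0.16). Ddc, the next enzyme of that path, rose by 0.41 ± 0.10 (adjusted p = 0.0156). The Ddc call was lost without WT_549_2 (0.38) or MUT_S_265_5 (0.39), and with the library number as a block (0.41). Maoa, which breaks amines down, fell by 0.53 on the log2 scale (SE 0.12, adjusted p = 0.00783).

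Of 13 surface and niche genes, 2 rose and 2 fell in weak CKO and 3 rose and 5 fell in strong CKO, where 9.09% and 5.38%, and 14.6% and 11%, of all genes did. Uchl1, a widely used marker of these cells, rose by 0.88 ± 0.15 (adjusted p = 0.00444) in weak and 1.15 ± 0.15 (adjusted p = 0.000582) in strong CKO. The ligand Slit2 went from 384 CPM in wild type to 187 and 146 CPM (log2 change -1.04 ± 0.14, adjusted p = 0.00151, and -1.39 ± 0.15, adjusted p = 0.000194), and its receptor Robo2, which guides the clustering of neuroendocrine cells, changed by -0.32 ± 0.09 (adjusted p = 0.0320) and -0.40 ± 0.09 (adjusted p = 0.00786). The weak CKO call of Robo2 was lost in 10 of 16 alternatives. Bex2 fell in strong CKO (-0.87 ± 0.16, adjusted p = 0.00444).

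Of 7 tested receptor genes for these peptides, Ramp2 fell in both CKO groups and Calcrl in strong CKO, and none was called higher in either group alone. Calcrl, the receptor that Ramp1 turns into a CGRP receptor and Ramp2 into an adrenomedullin receptor, averaged 964, 655 and 480 CPM in the 3 groups, with a log2 change of -0.56 ± 0.25 (adjusted p = 0.176) in weak and -1.01 ± 0.25 (adjusted p = 0.0179) in strong CKO; the strong CKO call was lost without MUT_S_265_5 (-0.87). Ramp2 changed by -0.51 ± 0.14 (adjusted p = 0.0377, lost in 8 of 16 alternatives) and -0.83 ± 0.14 (adjusted p = 0.00256). Ramp1 averaged 8.70, 12.9 and 13.3 CPM (log2 changes 0.57 ± 0.22, adjusted p = 0.113, and 0.62 ± 0.22, adjusted p = 0.0647) and was called higher with both CKO groups pooled (0.59), a call lost in 8 of 15 alternatives.

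**Figure D3:**
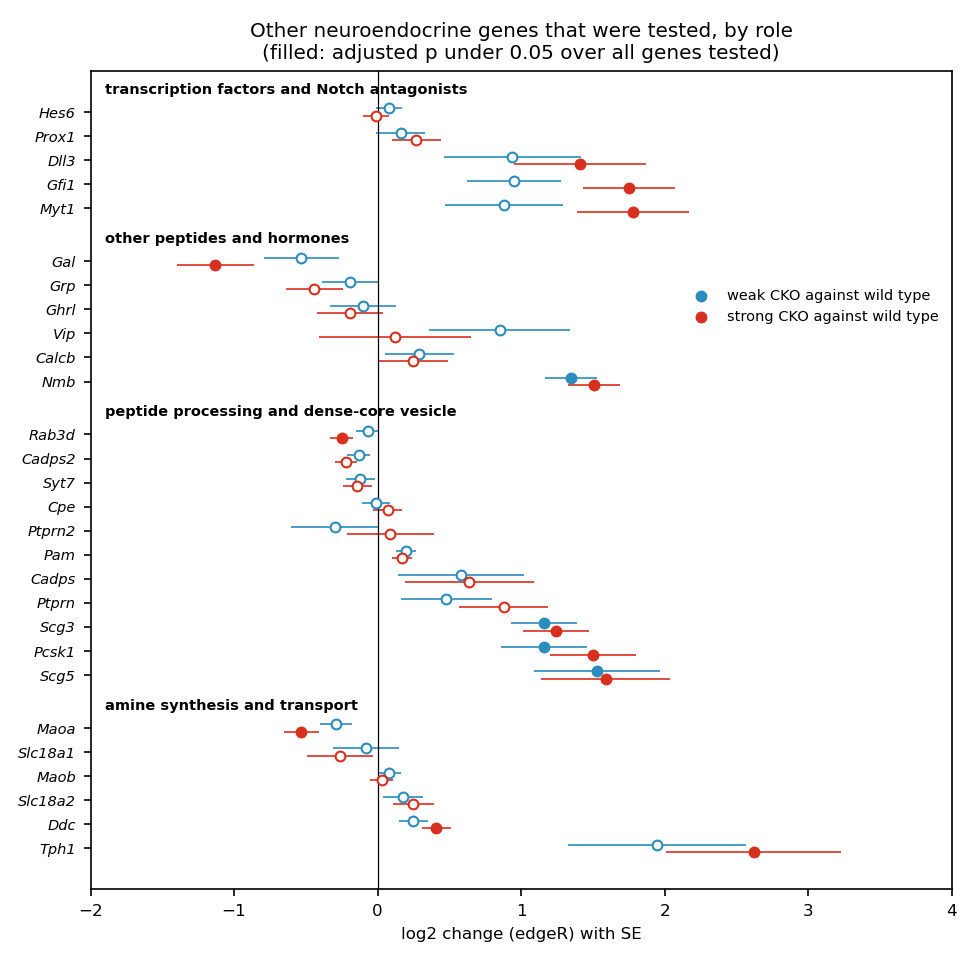
Log2 changes with SE (x axis) of the other tested neuroendocrine genes, grouped by role, in weak and strong CKO against wild type; filled points have adjusted p under 0.05 over all genes tested. Nmb, Scg3, Pcsk1 and Scg5 lie above 1 in both groups. Gfi1, Myt1 and Dll3 lie at 1.75, 1.78 and 1.41 in strong CKO, and at 0.95, 0.88 and 0.94, not called, in weak CKO. Tph1 lies at 2.62 and Gal at -1.13 in strong CKO, and most of the remaining genes lie near 0.

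Markers of other cells that use granule genes, and of the other airway cells, were read beside the 7 genes. Counts of called markers, here and in the paragraphs on sympathetic and airway markers, are read against the shares over all genes. These were 9.09% called higher and 5.38% lower in weak CKO, and 14.6% and 11% in strong CKO. The summed level of the 7 genes was 5.27 to 7.96 CPM in wild type, 7.82 to 14.1 in weak CKO and 11.2 to 15.8 in strong CKO. Of 9 tested lung neuron markers, 3 rose in weak and 5 in strong CKO. Their median log2 change was 1.03 and 1.31, beside 1.11 and 1.40 for the 7 genes. Prph, Tubb3, Isl1, Elavl3 and Nefl, like Chga, Chgb, Insm1 and Resp18, passed the filter on low counts only through the CKO groups. This makes high values more likely in both medians. The summed level of the 12 listed was 25.4 to 31.4, 25.6 to 31.7 and 24.4 to 31.9 CPM, most of it from Stmn2 (19.5, 15.5 and 13.7 CPM) and Gap43 (7.06, 6.01 and 5.24 CPM), which were not called and were chosen after their values were seen. The intermediate filament Prph rose by 2.34 ± 0.36 (adjusted p = 0.00224) and 3.39 ± 0.36 (adjusted p = 0.000139), and the tubulin Tubb3 by 2.28 ± 0.40 (adjusted p = 0.00459) and 2.91 ± 0.40 (adjusted p = 0.000625). Of 7 Schwann cell markers, 2 rose in weak and 4 in strong CKO (summed level 195 to 211, 238 to 251 and 233 to 247 CPM), among them Cdh19, which went from 0.230 CPM to 31.4 and 33.6 CPM and so makes up most of the difference between the sums, and Sox10 (2.03 ± 0.30, adjusted p = 0.00174, and 2.06 ± 0.30, adjusted p = 0.000995). Cdh19 and Sox10 also passed the filter only through the CKO groups, at 0.1245 to 0.3553 and 0.1938 to 0.314 CPM in wild type. The part of neurons and glia in the result was not tested.

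Sympathetic and chromaffin markers gave 1 fall of 4 tested in weak CKO (Dbh, -1.98 ± 0.48, adjusted p = 0.0197; lost without WT_265_1 or MUT_W_268_3) and 1 rise in strong CKO (Chrnb4, 1.25 ± 0.32, adjusted p = 0.0163; lost in 5 of 16 alternatives, among them without WT_268_1, WT_549_2 or MUT_S_268_4), with summed levels of 4.17 to 9.55, 5.31 to 9.31 and 7.96 to 9.996 CPM. Dbh reached the filter's cutoff of 0.327 CPM in every library only in wild type (0.3876 to 0.6978 CPM, against 0.05965 to 0.1703 in weak CKO). This makes a fall more likely for Dbh. The 2 tested thyroid markers, Tshr and Tg, were not called. Tshr changed by 1.32 ± 0.54 (adjusted p = 0.132) and 1.37 ± 0.55 (adjusted p = 0.0882), and Tg by 0.19 and 0.20. In wild type Tshr lay at 0.1745 to 0.2178 CPM, under that cutoff, which makes a rise more likely. The summed level of the 4 thyroid markers measured was 1.13 to 2.37, 1.72 to 2.69 and 2.07 to 2.75 CPM. Of the 10 gut and pancreas endocrine genes listed, only 3 were found by symbol. These were Ins2, Iapp and Sct, which summed to at most 0.328 CPM in any library, and none passed the filter. Their part in the result was not tested either.

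Airway markers also shifted between the groups, but not always in step with the 7 genes within a group. Among weak CKO MUT_W_549_3 had the highest sum of the 7 genes (14.1 CPM) and the lowest secretory and ciliated sums (3374 and 336 CPM). Among strong CKO MUT_S_268_4 had the highest sum of the 7 genes (15.8 CPM) and the lowest secretory sum (3758 CPM). In wild type WT_265_1 was highest for the 7 genes (7.96 CPM), the secretory (2541 CPM) and the ciliated markers (284 CPM). Of 6 secretory cell markers 3 rose in weak and 4 in strong CKO (summed level 1637 to 2541, 3374 to 4981 and 3758 to 5884 CPM), for example Scgb3a2 at 1.14 ± 0.16 (adjusted p = 0.00128) and 1.34 ± 0.16 (adjusted p = 0.000321). Of 6 ciliated cell markers 4 rose in each group (191 to 284, 336 to 457 and 434 to 499 CPM), for example Foxj1 at 0.80 ± 0.15 (adjusted p = 0.00892) and 1.17 ± 0.15 (adjusted p = 0.000746). In contrast, the 8 general epithelial markers summed to 1330 to 1514, 1381 to 1478 and 1366 to 1493 CPM, with 1 rise (Elf3) and 1 fall (Nkx2-1) in each group. The Nkx2-1 call in strong CKO (-0.20) was lost in 9 of 16 alternatives and in weak CKO (-0.26) without MUT_W_268_3, and the Elf3 call in weak CKO (0.44) without WT_268_1, MUT_W_265_2 or MUT_W_549_3. The 7 erythroid markers, measured because strong CKO lungs bled, summed to 3948 to 7398, 3777 to 4393 and 6763 to 12690 CPM with no call. The part of these cells in the result was not tested.

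**Figure D4:**
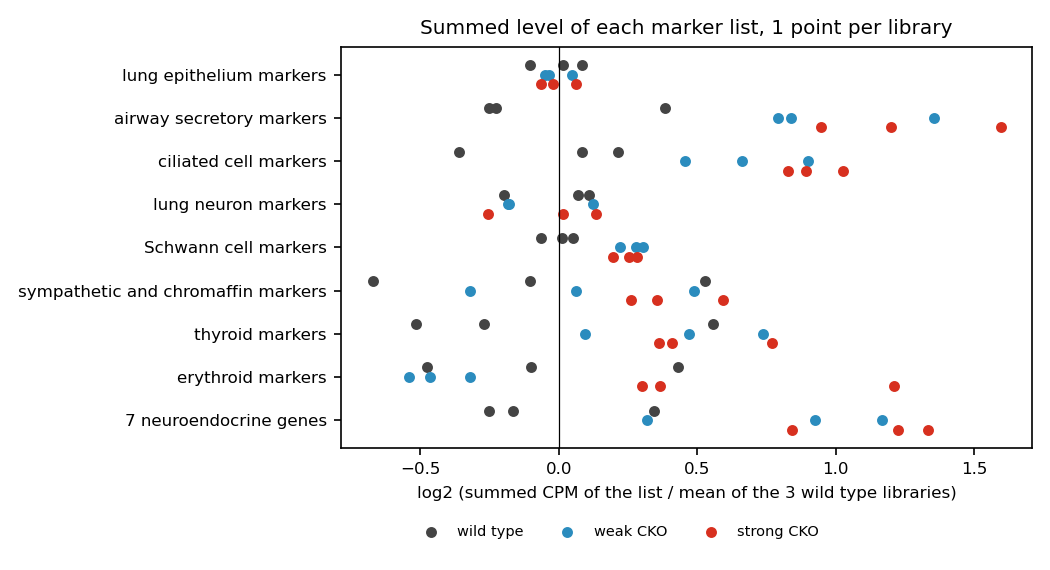
Summed CPM of each marker list in each library as log2 of its ratio to the wild type mean (x axis), 1 point per library in the 3 groups. The 7 neuroendocrine genes, the secretory and the ciliated markers lie to the right in strong CKO, the epithelium sums stay around 0, as do the lung neuron sums, which are mostly Stmn2 and Gap43 while 5 of 9 tested neuron markers rose in strong CKO, and erythroid sums are split between weak and strong CKO.

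The genes whose pattern over the 9 libraries was most like the mean of the 7 were Abcb9 (Pearson r = 0.979), Slc8a2 (0.978), Wdr92 (0.974), Rabepk (0.972), Rasgrp1 (0.953), B9d2 (0.952), Psmb2 (0.952) and Ffar4 (0.951), out of 13919 genes compared. After the group means were subtracted the closest were Prelid2 (0.989), Dpep1 (0.972), Bahd1 (0.967) and Lgalsl (0.958). With 9 libraries, high values of r arise for some genes among so many, and these are given as a description.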

How the data were processed

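Whole E18.5 lungs were sequenced as single reads of 75 nt, per the labels' protocols. The table deposited by the authors holds whole-number counts per gene and library, not normalised, and RPKM values, per the file headers, which equal the count over the deposited gene length and a library size. The submitters' processing notes name STAR, the GRCm38.p6 build, edgeR 3.28.1, Trimmomatic 0.36, cutadapt 2.5 and FastQC 0.11.8; a counting tool and strandedness are not given in the sources used here. Low counts limit the precision of Chga, Chgb, Insm1 and Resp18. Of the listed genes, Scg5, Tph1 and Chrnb4 also passed the filter on low counts only through the CKO groups. Among the sympathetic markers, Dbh passed it only through wild type.

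Counts were tested here with edgeR 4.0.16 in R 4.3.3: filterByExpr by group, TMM factors, a mean for each group, robust quasi-likelihood fits over the 9 libraries, two-sided F tests and Benjamini-Hochberg adjustment over 19374 genes at a threshold of 0.05. Fold changes are log2 values with standard errors from the unshrunk change and F, and intervals use its residual degrees of freedom. The code was checked on simulated data. Alternatives were DESeq2 1.42.0, upper quartile factors, no filter, limma 3.58.1 on log2(RPKM + 1) and log2(RPKM + 0.1), only the groups compared, the library number as a block, and leaving out each library. Gene positions and lengths came from GENCODE M21.

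The members and lists were chosen with earlier results of these data known. Named were the 7 genes, Dnmt1, of each list up to 4 called genes by adjusted p (the 2 highest where none was called), and the 8 genes most like the 7 by either correlation, of which the text gives a selection. A few genes of the lists are not reported here and were left out of the list counts and sums.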

Additional observations from a re-analysis of the deposited data

How the results depend on the processing

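In strong CKO, Calca, Chga, Chgb and Resp18 kept their calls in all 16 alternatives, as did Chga in weak CKO; the strong CKO calls of Scg2 and Insm1 were lost in 5 and 11, and the weak CKO calls of Calca, Chgb and Resp18 in 7, 6 and 12. In weak CKO, 4 of the 7 genes were called, against 2 with DESeq2, 2 with log2(RPKM + 1), 1 with only the groups compared and 1 to 4 when a library was left out (1 without WT_268_1, WT_549_2 or MUT_W_549_3, and 2 without MUT_W_265_2 or MUT_W_268_3). Over all genes, leaving out a library gave 966 to 1795 higher and 344 to 1037 lower calls in weak CKO, and 1164 to 2141 lower calls in strong CKO. For strong against weak CKO, 0 genes were higher and 1 lower, against 3 and 14 with DESeq2, 1 higher with log2(RPKM + 0.1), 4 lower with only the groups compared, 3 lower with the replicate block, and 0 to 3 higher and 1 to 3 lower when a library was left out. Small differences changed sign when a library was left out: Syp ran from -0.53 to 0.01 in weak CKO, -0.39 to 0.02 in strong CKO and -0.14 to 0.40 between them, and the strong against weak difference from -0.06 to 0.18 for Chgb and -0.04 to 0.50 for Insm1. The log2(RPKM + 1) scale compresses low genes, and on it the strong CKO changes of the 6 genes that rose were 0.17 to 0.65. Library numbers are shared between groups, and their meaning is not given. Correlations of the deviations of same-numbered libraries were 0.112 to 0.299 among WT_265_1, MUT_W_265_2 and MUT_S_265_5, 0.346 between WT_549_2 and MUT_W_549_3, and -0.0869 to 0.0830 among WT_268_1, MUT_W_268_3 and MUT_S_268_4, so the libraries were not treated as paired; not every library correlated best with its own number. With the number as a replicate block, 4 of 7 genes were called in weak and 4 in strong CKO, where the calls of Scg2 (1.60) and Insm1 (1.37) were lost. Syp changed sign in strong CKO (0.27) and in both CKO groups together (0.03), and MUT_S_860_3, the only library of its number, did not enter the estimate. The causes of these changes were not tested.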

Other observations

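REST (NRSF) is a repressor that keeps neuronal and neuroendocrine genes, granins among them, silent in other cells. Of 8 tested genes of REST and its corepressor complexes, none was called in weak CKO. In strong CKO Rcor2 rose (0.61 ± 0.14, adjusted p = 0.00998) and Rcor3 fell (-0.29 ± 0.09, adjusted p = 0.0348), where 14.6% of all genes rose and 11% fell. The Rcor3 call was lost in 10 of 16 alternatives, among them without WT_268_1 (-0.21), WT_549_2, MUT_W_268_3, MUT_S_265_5 or MUT_S_860_3. Rest itself averaged 106, 99.3 and 93.0 CPM in wild type, weak CKO and strong CKO (log2 changes -0.09 ± 0.07 and -0.19 ± 0.07, adjusted p = 0.407 and 0.0605); it was chosen after its values were seen.

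Cdh19, a cadherin among the Schwann cell markers, lay at 0.124 to 0.355 CPM in wild type, 24.5 to 39.9 in weak CKO and 28.9 to 42.0 in strong CKO, log2 changes of 7.07 ± 0.34 (adjusted p = 4.3e-06) and 7.17 ± 0.34 (adjusted p = 3.3e-06), while Erbb3, Mbp and S100b of the same list were not called in either group.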
